A study of Homo sapiens with 4 samples.

Results

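The Hippo pathway effector genes examined here were YAP1, WWTR1, TEAD1, TEAD2, TEAD3, TEAD4, LATS1, LATS2 and CCN1, which are 9 of the 20033 protein-coding genes of GENCODE release 44 on chromosomes 1 to 22, X and Y. They were named for their place in the pathway and not for any measured value, although earlier results of these data were known. A peak was assigned to a gene if it overlapped the gene span widened by 10 kb on each side. Over the 4 peak lists, 56 peaks were assigned to the 9 genes. Binding was measured by anti-GFP ChIP-seq in MDA-MB-231, a human metastatic breast cancer cell line kept under Geneticin and carrying a bacterial artificial chromosome (BAC) with a tagged SMAD2 or SMAD3 gene under its own control elements. The localization and affinity purification (LAP) tag contains GFP, so that 1 antibody served for both proteins. The 4 groups were LAP-Smad2 untreated, LAP-Smad3 untreated, LAP-Smad2 with 10 ng/mL TGFβ-1 for 2 h and LAP-Smad3 with the same treatment. Each group had 1 library. All the groups were GFP-sorted pools of stably transfected cells, in which the untagged Smad proteins remained. The peak lists hold no expression values against which the cell line could be checked.

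In the Hippo pathway, a kinase cascade that ends in LATS1 and LATS2 phosphorylates the coactivators YAP (YAP1) and TAZ (WWTR1) and keeps them out of the nucleus. When the kinases are inactive, YAP and TAZ enter the nucleus and act through the DNA-bound TEAD factors TEAD1 to TEAD4 on targets such as CCN1, which encodes a secreted matrix protein. LATS2 is itself a known YAP/TAZ target that feeds back on the pathway. Smad2 and Smad3 are the receptor-regulated Smads of the TGFβ pathway, and complexes of Smads with YAP or TAZ are known. The question addressed here is where each tagged Smad was found at the genes of these effectors.

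The lists held 11266 peaks for the untreated library labelled LAP-Smad2, 3511 for the one labelled LAP-Smad3, 26828 for LAP-Smad2 after TGFβ-1 and 62551 for LAP-Smad3 after TGFβ-1. Read totals are not in the lists, so library depth is unknown, and counts in the longer LAP-Smad3 list are read beside the counts over all protein-coding genes. For the untreated pair, the deposited peak names give the opposite Smad to the sample labels, and 14 peaks within 10 kb of SMAD2 and 1 at SMAD3 came from the untreated library labelled LAP-Smad3, against 2 and 0 from the one labelled LAP-Smad2. In the treated lists, LAP-Smad2 had 18 peaks at SMAD2 and 1 at SMAD3, and LAP-Smad3 had 1 and 52. The untreated library labelled LAP-Smad3 thus had more peaks at SMAD2 than at SMAD3, as treated LAP-Smad2 did, so the labels of this pair may be exchanged. For this reason the Smads are not compared without TGFβ-1. The untreated libraries carry the names on their labels throughout only to tell them apart. With 1 library per group no difference between groups has a replicate check, no test was possible and no p-value is given. Intervals are Wilson 95% intervals that cover counting error only. They treat peaks as independent, although many peaks lie at the same gene, so they are likely too narrow.

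After TGFβ-1, LAP-Smad2 peaks lay at 7 of the 9 genes and LAP-Smad3 peaks at 8. TEAD4 and LATS1 had LAP-Smad3 peaks alone, CCN1 had a LAP-Smad2 peak alone, and the other 6 genes had peaks of both lists. Of all protein-coding genes, 55.9% had a LAP-Smad2 peak within 10 kb, 74.3% a LAP-Smad3 peak and 47.0% a peak of each. Without TGFβ-1, LATS2 alone had a peak in the library labelled LAP-Smad2, where 4403 of the 20033 protein-coding genes, or 22%, had one. TEAD3 alone had peaks in the library labelled LAP-Smad3, where 9.14% had one. Longer genes had peaks more often. Among the 10510 protein-coding genes with a widened span under 50 kb, the class of TEAD2, TEAD3 and CCN1, 46.3% had a LAP-Smad2 and 64.5% a LAP-Smad3 peak. Among the 6847 protein-coding genes with a widened span of 50 to 150 kb, the class of YAP1, TEAD4, LATS1 and LATS2, 62.2% had a LAP-Smad2 and 81.0% a LAP-Smad3 peak. Among the 2676 genes above 150 kb, the class of WWTR1 and TEAD1, these shares were 76.9% and 95.7%.

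**Figure D1:**
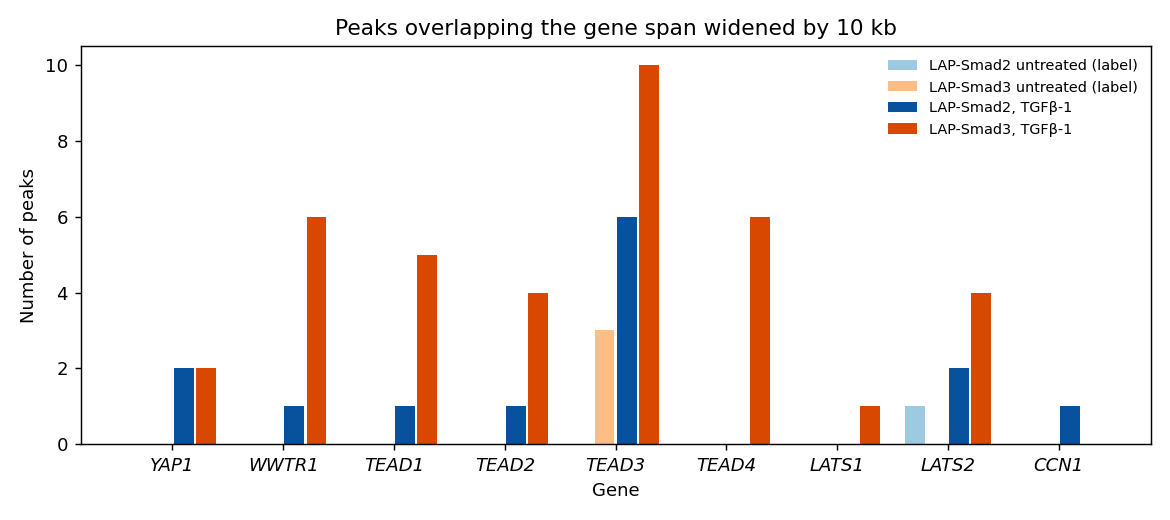
The bars give the number of peaks of each of the 4 lists (y axis) that overlapped each gene span widened by 10 kb (x axis), with 1 library per bar and no error bar. TEAD3 has the most peaks in the LAP-Smad2 list (6) and in the LAP-Smad3 list (10) after TGFβ-1, and the untreated lists have peaks at LATS2 (1) and TEAD3 (3) alone.

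In the LAP-Smad2 list after TGFβ-1, 14 peaks were assigned to the 9 genes, or 1.31 per 100 kb of widened span, beside 1.28 over all protein-coding genes. In the LAP-Smad3 list, 38 peaks were assigned, or 3.55 per 100 kb beside 2.86 over all protein-coding genes. Without TEAD3, which held 16 of these peaks, the densities were 0.778 and 2.72 per 100 kb, below those over all protein-coding genes in both lists. The lists also differed in where in the genes their peaks lay.

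The majority of the LAP-Smad2 peaks lay near start sites. A LAP-Smad2 summit was within 500 bp of a start site of the gene at 6 of the 9 genes (YAP1, WWTR1, TEAD1, TEAD3, LATS2 and CCN1), where 25.0% of all protein-coding genes had such a summit. In the longest length class this share was 33.1%. No LAP-Smad3 summit was within 500 bp of a start site of any of the 9 genes, where 19.0% of all protein-coding genes had one. By peaks, 8 of 14 LAP-Smad2 summits, or 57.1% (32.6% to 78.6%), and 0 of 38 LAP-Smad3 summits (0% to 9.18%) were this close, beside 25.4% and 9.38% over all protein-coding genes. The distance of 500 bp was chosen after the distances had been seen. With the start of the canonical transcript alone, 4 genes (YAP1, TEAD3, LATS2 and CCN1) had a LAP-Smad2 summit within 500 bp and 0 had a LAP-Smad3 summit, beside 18.5% and 9.51% of all protein-coding genes.

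**Figure D2:**
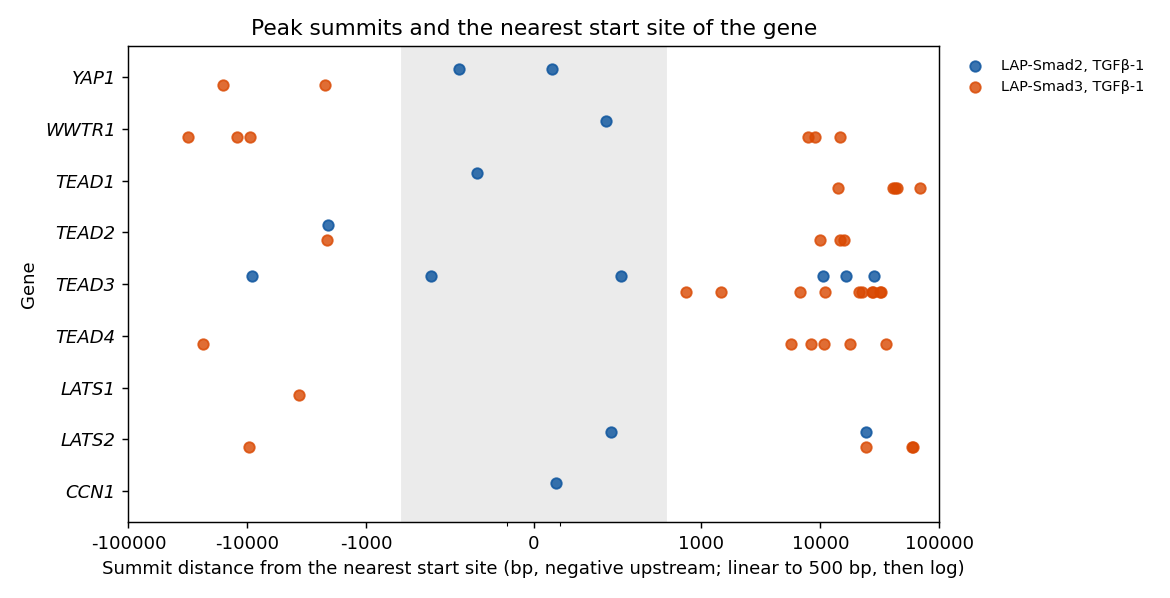
Each point is the summit of 1 peak after TGFβ-1, placed by its distance in bp from the nearest start site of the gene (x axis, linear to 500 bp and logarithmic beyond, negative upstream) and by gene (y axis). The shaded band marks 500 bp on each side of a start site and holds 8 LAP-Smad2 and 0 LAP-Smad3 summits, and the LAP-Smad3 summits begin at 745 bp, at TEAD3.

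With the wider promoter definition, an interval within 3 kb of a start site, 7 of the 9 genes had a LAP-Smad2 and 3 (YAP1, TEAD2 and TEAD3) a LAP-Smad3 promoter peak. The shares over all protein-coding genes were 35.4% and 40.2%. Of the LAP-Smad2 peaks, 9 of 14, or 64.3% (38.8% to 83.7%), were promoter peaks, beside 41.3% over all protein-coding genes. Of the LAP-Smad3 peaks, 4 of 38, or 10.5% (4.17% to 24.1%), were promoter peaks, beside 28.2%. The median distance of a summit from the nearest start site was 359.5 bp for LAP-Smad2 and 15344 bp for LAP-Smad3 peaks, beside 5628 bp and 7778 bp over all protein-coding genes. These promoter shares and distances over all protein-coding genes were not matched to the lengths of the 9 genes. By the canonical transcript, 21 of the 38 LAP-Smad3 summits lay in introns, 4 in coding exons and 1 in a 3′ UTR. A further 4 lay in WWTR1 before the canonical start, and 8 lay outside the gene span.

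YAP1 (ENSG00000137693.14) encodes YAP and spans 102110447 to 102233424 of chromosome 11 (hg38, plus strand). Its start held a pair of LAP-Smad2 peaks after TGFβ-1. The first, from 102110067 to 102110310, had its summit 282 bp upstream of the start and a fold enrichment of 4.32 over the local background, at percentile 69.9 of its list. The second, from 102110760 to 102111039, had its summit in the coding part of exon 1, 71 bp downstream of an annotated start and 473 bp downstream of the canonical one, with a fold of 3.54. The LAP-Smad3 peaks lay in introns 3 and 6, from 102183755 to 102184072 and from 102210739 to 102210964. Their folds were 4.03 and 5.21, at percentiles 20.7 and 61.0. The first of these summits was 2197 bp upstream of the start of a shorter transcript and 73437 bp downstream of the canonical start. No peak of one list overlapped a peak of another at YAP1.

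WWTR1 (ENSG00000018408.15), the gene of TAZ, spans 149517235 to 149736714 of chromosome 3 (minus strand). It had 1 LAP-Smad2 peak, from 149657088 to 149657320, with a fold of 4.51 at percentile 77.0. Its summit lay in the coding part of exon 2, 274 bp downstream of an annotated start, 864 bp downstream of the canonical start and 109 bp from a start of the antisense gene WWTR1-AS1. The 6 LAP-Smad3 peaks were spread over the locus, from 149607360 to 149728896, with folds of 2.91 to 5.48 and summits 7897 bp to 31212 bp from the nearest start. Of these 6 peaks, 2 lay in intron 2 and 4 in the part of the gene before the canonical start.

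TEAD1 (ENSG00000187079.20), which spans 12674421 to 12944737 of chromosome 11 (plus strand), encodes a DNA-binding partner of YAP and TAZ and is the longest of the 9 genes. Its LAP-Smad2 peak, from 12675126 to 12675432, had a fold of 4.94 at percentile 88.5, the highest rank of the summits at start sites. The summit was 215 bp upstream of an annotated start and 867 bp into the gene from the canonical start, in intron 1. The 5 LAP-Smad3 peaks all lay in introns, 14020 bp to 69294 bp downstream of the nearest start. The strongest, from 12719958 to 12720159 in intron 2, had a fold of 7.14 at percentile 93.4, and the weakest, in intron 10, had a fold of 3.08 at percentile 2.15.

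CCN1 (ENSG00000142871.18) spans 85580761 to 85584589 of chromosome 1 (plus strand) and is the shortest gene of the set and the only target gene in it that does not belong to the cascade itself. Its single peak was a LAP-Smad2 peak from 85580858 to 85581111, with a fold of 3.80 at percentile 40.7. The summit lay in the coding part of exon 1, 86 bp downstream of an annotated start and 247 bp downstream of the canonical one. The LAP-Smad3 list had no peak within 10 kb of CCN1, although it had 19 in the 1 Mb around it.

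LATS2 (ENSG00000150457.9), a kinase that restrains YAP and TAZ, spans 20973036 to 21061586 of chromosome 13 (minus strand). A LAP-Smad2 peak from 21061161 to 21061391 had its summit in intron 1, 291 bp downstream of the start, with a fold of 4.75 at percentile 84.4. A second site lay in intron 2, where 3 lists had a peak. The peak of the untreated library labelled LAP-Smad2, from 20998737 to 20998971, overlapped the LAP-Smad2 peak after TGFβ-1 from 20998857 to 20999056 by 115 bp and the LAP-Smad3 peak after TGFβ-1 from 20998557 to 20998756 by 20 bp. The treated peaks themselves were separated by 100 bp, with summits 289 bp apart, and are not counted as a shared site. Folds at this intron were 4.44, 4.04 and 4.37 in that order of lists. The other LAP-Smad3 peaks at LATS2 were 1 in intron 2, with a fold of 5.27, and a pair downstream of the gene with folds of 6.55 and 4.02.

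LATS1 (ENSG00000131023.13), the paralogous kinase, spans 149658153 to 149718105 of chromosome 6 (minus strand). Its only peak was a LAP-Smad3 peak in intron 1, from 149705981 to 149706180, with a fold of 3.10 at percentile 2.27 of its list. TEAD4 (ENSG00000197905.10), at 2959330 to 3040676 of chromosome 12 (plus strand), also had no LAP-Smad2 peak. Of its 6 LAP-Smad3 peaks, 5 lay in introns and 1 downstream of the gene, with folds of 4.19 to 6.07. The strongest lay in intron 8, from 3019209 to 3019514, 8298 bp downstream of a start of a shorter transcript.

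To show what sequence lay under the LAP-Smad2 start-site peaks, windows are given for the 4 start-site summits with the highest fold percentile, 200 bp on the summit read from the plus strand of hg38, less any bases in annotated untranslated exons. These 4 were chosen after the values had been seen. Capitals mark CAGAC or its reverse complement GTCTG, the core of the Smad-binding element, and GGCGC or its reverse complement GCGCC, the GC-rich Smad site. In GGCGCC both strands match, which counts as 2 matches.
YAP1, chr11:102110065-102110264: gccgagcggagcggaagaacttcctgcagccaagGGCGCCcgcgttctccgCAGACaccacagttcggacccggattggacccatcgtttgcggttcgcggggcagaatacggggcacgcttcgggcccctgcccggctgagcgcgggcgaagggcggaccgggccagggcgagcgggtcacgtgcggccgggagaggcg
WWTR1, chr3:149657061-149657260: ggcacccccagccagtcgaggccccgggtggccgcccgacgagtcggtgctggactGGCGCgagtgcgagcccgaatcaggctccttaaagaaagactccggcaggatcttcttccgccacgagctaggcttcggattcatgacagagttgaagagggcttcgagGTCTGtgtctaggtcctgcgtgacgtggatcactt
TEAD1, chr11:12675188-12675387: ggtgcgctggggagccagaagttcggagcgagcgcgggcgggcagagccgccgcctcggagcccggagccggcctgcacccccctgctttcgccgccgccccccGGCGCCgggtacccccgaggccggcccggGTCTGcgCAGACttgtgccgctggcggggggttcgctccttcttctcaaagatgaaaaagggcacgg
LATS2, chr13:21061195-21061345: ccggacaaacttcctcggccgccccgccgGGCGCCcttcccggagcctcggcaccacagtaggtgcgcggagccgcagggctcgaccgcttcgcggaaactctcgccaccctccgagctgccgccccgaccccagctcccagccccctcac

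CAGAC was found in the windows of YAP1, WWTR1 and TEAD1 shown here and not in that of LATS2, while GGCGC was found in each of them. Over all 8 start-site LAP-Smad2 summits, 8 windows held GGCGC and 4 held CAGAC. Among the LAP-Smad2 summits within 500 bp of a start site of any protein-coding gene, 73.6% held GGCGC and 32.4% held CAGAC. The first of these is made of G and C alone, and the median GC content was 75.3% in the 8 windows, beside 70.5% in all such windows.

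Over all 14 LAP-Smad2 windows, GGCGC was found in 12, or 85.7% (60.1% to 96.0%), beside 57.7% of the 26828 windows of the list. CAGAC was found in 5, or 35.7% (16.3% to 61.2%), beside 35.3%. Of the 38 LAP-Smad3 windows, 16, or 42.1% (27.9% to 57.8%), held GGCGC, beside 43.4% of the list, and 10, or 26.3% (15.0% to 42.0%), held CAGAC, beside 34.4%. In 200 bp before the start of 15345 protein-coding genes of RefSeq (GRCh38.p14), 55.0% held GGCGC and 29.8% CAGAC, and 6 of the 9 genes had a RefSeq entry in the table used. The core of the TEAD site, GGAATG, was found in 0 of 14 LAP-Smad2 and 2 of 38 LAP-Smad3 windows, beside 6.54% and 6.21% of the lists and 7.64% of the RefSeq windows. The matches were in intron 8 of TEAD4 and intron 2 of LATS2. The AP-1 sequence TGANTCA was found in 0 LAP-Smad2 windows and 1 LAP-Smad3 window, at TEAD3, beside 1.37% and 2.70% of the lists and 4.01% of the RefSeq windows. An E-box, CANNTG, was present in 5 of 14 and 22 of 38 windows, beside 51.9% and 55.9% of the lists and 49.4% of the RefSeq windows. All the motifs were searched on both strands, and a match says only that the letters are present.

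Sequence that mostly recurs elsewhere in the genome was found under LAP-Smad3 peaks but not under LAP-Smad2 peaks of these genes. A window was called mostly repeated if at least 50% of its 24-mers occur more than once in hg38. None of the 14 LAP-Smad2 windows was, and the highest share of repeated 24-mers in any was 7.34%. Of the 38 LAP-Smad3 windows, 17, or 44.7%, were mostly repeated. Over all protein-coding genes these shares were 36.2% for LAP-Smad2 and 52.1% for LAP-Smad3, and among LAP-Smad2 summits within 500 bp of a start site the share was 8.36%. At YAP1 both LAP-Smad3 windows were mostly repeated, at WWTR1 5 of 6 and at LATS1 the only one. So were 2 of 4 at LATS2, which are the pair downstream of the gene. The counts were 3 of 6 at TEAD4, 3 of 10 at TEAD3, 1 of 5 at TEAD1 and 0 of 4 at TEAD2. Without mostly repeated windows, LAP-Smad3 had 21 peaks at 6 of the 9 genes, and YAP1 and LATS1 had none. The LAP-Smad2 windows of these genes had a median of 70.3% GC and the LAP-Smad3 windows one of 58.3%, beside 67.0% and 59.0% over all protein-coding genes. The part of repeats and GC content in the difference between the lists was not tested.

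**Figure D3:**
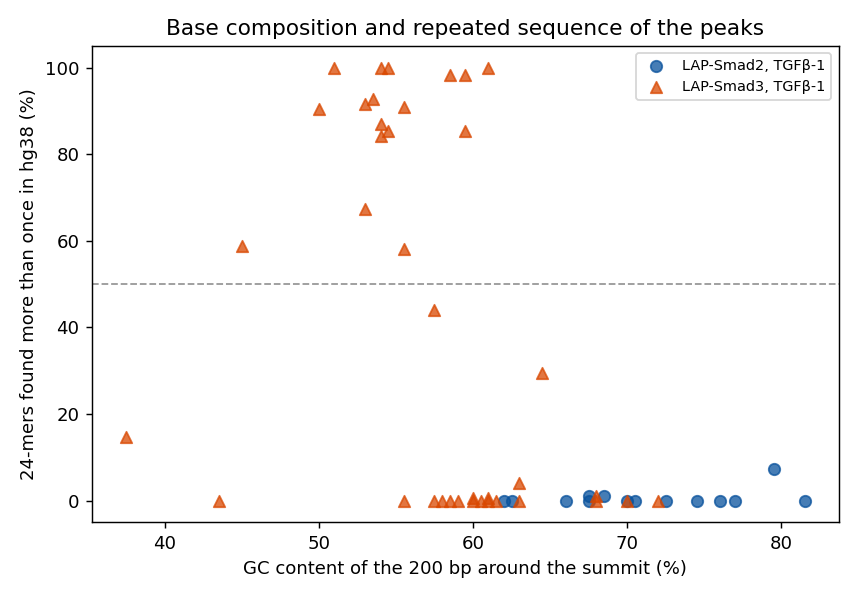
Each point is 1 peak of the 9 genes after TGFβ-1, placed by the GC content (x axis, %) and the share of 24-mers found more than once in hg38 (y axis, %) of the 200 bp around its summit. The 14 LAP-Smad2 points lie between 62.0% and 81.5% GC and near 0% repeated, whereas 17 of the 38 LAP-Smad3 points lie above the dashed line at 50%.

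The treated lists shared 3 sites at the 9 genes, 1 at TEAD2 and 2 at TEAD3, by an overlap of at least 1 bp. A shared site was present at 16.8% of all protein-coding genes and at 2 of these 9. The sites held 3 LAP-Smad2 peaks, 21.4% (7.57% to 47.6%) of the 14, and 4 LAP-Smad3 peaks, 10.5% (4.17% to 24.1%) of the 38, close to the 24.5% and 10.6% of all peaks of each list. These counts depended on the definition: in each list 0 peaks were shared with a mutual overlap of 50%, and 1 with summits within 100 bp, with lists of equal length or without TEAD3. At YAP1, WWTR1, TEAD1 and LATS2 both lists had peaks, but none of these overlapped. The windows of the LAP-Smad2 peaks at the 3 shared sites are shown with the same marks. They are centred on the LAP-Smad2 summits and are not the overlaps themselves. The TEAD2 window reaches into the LAP-Smad3 peak, whereas both TEAD3 windows lie outside the LAP-Smad3 peaks of their sites.
TEAD2, chr19:49364450-49364581: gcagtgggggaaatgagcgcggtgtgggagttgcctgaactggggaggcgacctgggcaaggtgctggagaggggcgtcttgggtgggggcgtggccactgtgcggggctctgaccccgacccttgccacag
TEAD3, chr6:35468435-35468614: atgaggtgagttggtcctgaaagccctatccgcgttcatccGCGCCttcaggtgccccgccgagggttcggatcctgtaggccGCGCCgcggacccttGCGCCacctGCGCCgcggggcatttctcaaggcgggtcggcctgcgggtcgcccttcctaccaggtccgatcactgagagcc
TEAD3, chr6:35486232-35486431: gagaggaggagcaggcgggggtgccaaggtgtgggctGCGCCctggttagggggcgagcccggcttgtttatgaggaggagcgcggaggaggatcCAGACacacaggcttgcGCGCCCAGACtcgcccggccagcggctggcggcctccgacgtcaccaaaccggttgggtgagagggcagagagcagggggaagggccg

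TEAD2 (ENSG00000074219.14) spans 49340595 to 49362457 of chromosome 19 (minus strand) and encodes another TEAD factor. Its only LAP-Smad2 peak, from 49364204 to 49364707, had a fold of 5.56 at percentile 96.0, the highest among the 9 genes in that list. It overlapped the LAP-Smad3 peak from 49364529 to 49364728 by 179 bp, with summits 31 bp apart, while the fold of the LAP-Smad3 peak was 3.83 at percentile 14.3. The LAP-Smad2 summit was 2093 bp upstream of the nearest TEAD2 start but 105 bp from a start of the neighbouring gene DKKL1, so that the site cannot be assigned to TEAD2 alone. The printed window held neither CAGAC nor GGCGC. The other 3 LAP-Smad3 peaks lay over coding exons 13, 12 and 10 of TEAD2, with folds of 4.17, 7.73 and 6.70. The fold of 7.73, from 49342311 to 49342644, was at percentile 96.8 and the highest of the 9 genes in the LAP-Smad3 list, and its summit was 1894 bp from a start of the neighbouring gene CD37.

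TEAD3 (ENSG00000007866.22), at 35473597 to 35497079 of chromosome 6 (minus strand), stood apart from the other genes. After TGFβ-1 it had 6 peaks of LAP-Smad2 and 10 of LAP-Smad3, or 13.8 and 23.0 per 100 kb of widened span, and 3 peaks in the untreated library labelled LAP-Smad3. Each of those 3 untreated peaks overlapped a LAP-Smad2 peak after TGFβ-1, by 500 bp, 200 bp and 253 bp, with summits 480 bp, 253 bp and 7 bp apart. The first of the 3 also overlapped a pair of LAP-Smad3 peaks after TGFβ-1, by 339 bp and 28 bp, with summits 91 bp and 430 bp apart. Every treated peak at TEAD3 was below the median fold of its list, with percentiles of 2.00 to 42.6 for LAP-Smad2 and 0.345 to 42.8 for LAP-Smad3. The ranks by −log10 q-value were not all low, with percentiles of 40.8 to 91.6 for LAP-Smad2 and 2.99 to 91.4 for LAP-Smad3. The start-site LAP-Smad2 peaks, from 35496526 to 35496775 and from 35497416 to 35497868, had folds of 2.66 and 2.78. The LAP-Smad3 peaks nearest to the start, from 35496121 to 35496323 and from 35495389 to 35495744, lay in intron 1, 745 bp and 1448 bp downstream of a start, with folds of 2.61 and 4.65. The second of these was the LAP-Smad3 promoter peak with the highest fold percentile among the 9 genes, and its window, shown here, held neither CAGAC nor GGCGC.
TEAD3, chr6:35495402-35495601: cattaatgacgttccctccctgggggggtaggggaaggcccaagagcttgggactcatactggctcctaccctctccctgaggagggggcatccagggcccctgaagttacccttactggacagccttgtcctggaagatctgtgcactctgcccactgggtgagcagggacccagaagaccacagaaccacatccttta

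Of the shared sites at TEAD3, the one in intron 2 joined the LAP-Smad2 peak from 35486084 to 35486793 and the LAP-Smad3 peak from 35485245 to 35486193, which overlapped by 110 bp with summits 255 bp apart. The other lay downstream of the gene, where the LAP-Smad2 peak from 35468395 to 35469315 overlapped a pair of LAP-Smad3 peaks by 366 bp and 7 bp. There the LAP-Smad2 summit was 95 bp from a start of RPL10A, a ribosomal protein gene. A further LAP-Smad2 peak, from 35505997 to 35506344, had its summit 98 bp from a start of TULP1. Over the 9 genes, a start of another protein-coding gene was nearer to the summit than any start of the assigned gene for 4 of the 14 LAP-Smad2 and 12 of the 38 LAP-Smad3 peaks, and these lay at TEAD2, TEAD3, TEAD4 and LATS2.

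The high number of peaks was not limited to TEAD3 itself. In the 1 Mb centred on the gene, the treated lists held 56 peaks for LAP-Smad2 and 74 for LAP-Smad3, where they average 8.69 and 20.3 per Mb. Of the untreated libraries, the one labelled LAP-Smad3 had 18 there, beside 1.14 per Mb, and the one labelled LAP-Smad2 had 5, beside 3.65. Of 3102 tiles of 1 Mb over the genome, 0.613% held at least 56 LAP-Smad2 peaks and 3.64% at least 74 LAP-Smad3 peaks after TGFβ-1. In the untreated libraries, 0.967% held at least 18 for the label LAP-Smad3 and 24.9% at least 5 for LAP-Smad2. The median fold in the 1 Mb around TEAD3 was 3.26 for LAP-Smad2 and 4.58 for LAP-Smad3 after TGFβ-1, below the medians of 3.98 and 4.97 of the whole lists. The part of this regional density in the count at TEAD3 was not tested.

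**Figure D4:**
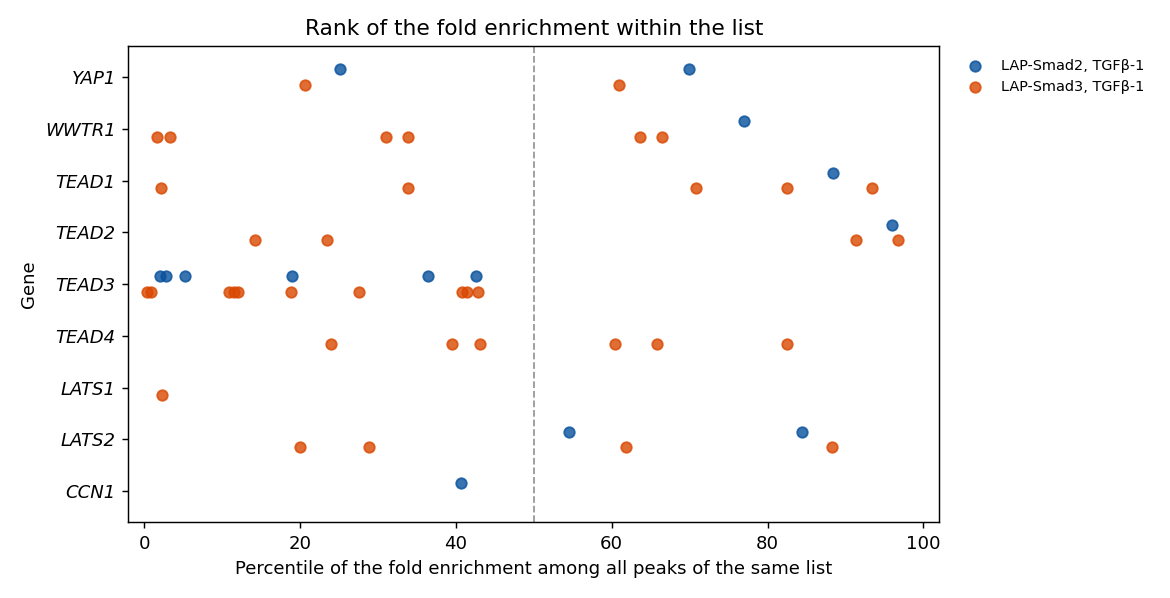
Each point is 1 peak after TGFβ-1, placed by the percentile of its fold enrichment among all peaks of the same list (x axis) and by gene (y axis), with the dashed line at the list median. All 6 LAP-Smad2 and 10 LAP-Smad3 peaks at TEAD3 lie left of the line, whereas the LAP-Smad2 peak at TEAD2 lies at 96.0 and that at TEAD1 at 88.5.

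**Figure D5:**
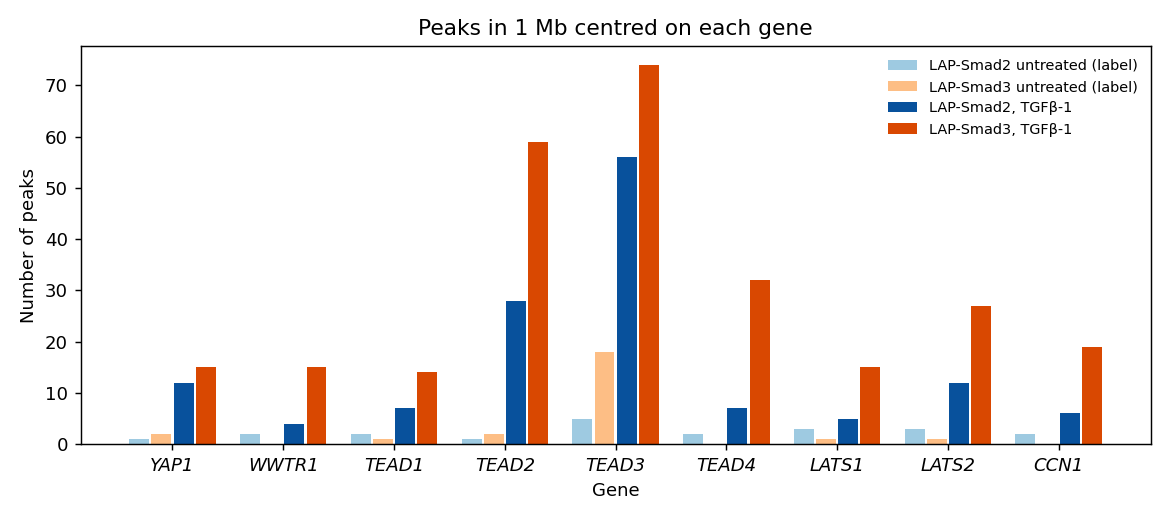
The bars give the number of peaks of each of the 4 lists (y axis) in 1 Mb centred on each gene (x axis), with 1 library per bar and no error bar. TEAD3 has the highest bar in each list, with 56 for LAP-Smad2 and 74 for LAP-Smad3 after TGFβ-1, followed by TEAD2 with 28 and 59.

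The median fold percentile of the peaks at the 9 genes was 41.7 for LAP-Smad2 and 33.9 for LAP-Smad3. Without TEAD3, the median fold percentiles were 73.5 and 41.3. The rank depended on the score: by −log10 q-value the median percentiles at the 9 genes were 69.7 for LAP-Smad2 and 46.0 for LAP-Smad3. Of the peaks at the 9 genes, 8 of 14 in the LAP-Smad2 list and 25 of 38 in the LAP-Smad3 list were below the median fold of their list.

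The other genes of the pathway were counted over 2 lists. The first held 24 upstream regulators and cofactors, from the kinases STK3 and STK4 and the scaffold NF2 to the VGLL cofactors. Of these, 17 had a LAP-Smad2 and 22 a LAP-Smad3 peak after TGFβ-1, beside 55.9% and 74.3% of all protein-coding genes. These 24 genes are long, with a median widened span of 137 kb. In the class of 50 to 150 kb the shares were 62.2% and 81.0%, and above 150 kb they were 76.9% and 95.7%. A LAP-Smad2 summit was within 500 bp of a start at 10 of the 24 genes and a LAP-Smad3 summit at 5, where the shares over all protein-coding genes were 25.0% and 19.0%. The second held 20 genes known as YAP/TAZ targets, of which 13 had a LAP-Smad2 and 17 a LAP-Smad3 peak. Start-site summits were found at 9 and 4 of them, and these counts are read beside the same shares of all protein-coding genes. Start-site summits were thus of both lists here. LAP-Smad3 had none at the 9 effector genes, but 9 genes are too few to set that count apart from the 19.0% of all protein-coding genes. The difference between the gene sets was not tested. CCN2, a matrix protein gene that is a classical YAP target like CCN1, had no LAP-Smad2 peak and 1 LAP-Smad3 peak, 1144 bp from its nearest start. ANKRD1, a nuclear protein of the same group of targets, had no peak in any list.

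Sites shared by the treated lists were found at 5 of the 24 upstream genes and cofactors and at 1 of the 20 targets, beside 16.8% of all protein-coding genes. This share also rose with length, from 9.90% under 50 kb to 18.9% at 50 to 150 kb and 38.4% above 150 kb. The median widened span was 137 kb in the first list and 51.1 kb in the second. MOB1B, a coactivator of the LATS kinases, and NF2, the membrane scaffold merlin, had 2 each. PTPN14, a phosphatase that binds YAP, and the kinases TAOK1 and TAOK3 had 1 each, as did the target ASAP1, a regulator of ARF GTPases. At MOB1B the nearest LAP-Smad2 and LAP-Smad3 summits were 196 bp and 199 bp from a start. At NF2 they were 40121 bp and 39816 bp from a start.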

How the data were processed

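Anti-GFP ChIP-seq of both LAP-tagged Smads was used as 1 peak list per library and 1 library per condition. Per the study's methods and the submitters' processing notes, the authors mapped single-end reads with Bowtie2 (hg38) and called peaks with MACS2 after extending reads to 200 bp. A q-value cut-off of 0.05 is stated for 1 of their comparisons. bedtools is named in the notes without its role. Versions, control library and filters are not given in the sources used here. The fold enrichment of each peak is a ratio over the local background that was deposited by the authors, as were the −log10 p-value and −log10 q-value. Fold values were ranked within a list only.

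Genes and transcripts came from GENCODE release 44, whose build is that of the lists. Peaks overlapping a gene span widened by 10 kb were counted. Distances ran from the summit to the nearest transcript start of the gene, promoter peaks lay within 3 kb of a start, and shared peaks overlapped by at least 1 bp. Windows of 200 bp on the summit were read from hg38, and each 24-mer was counted on both strands of chromosomes 1 to 22, X and Y. Python 3.11.15, numpy 2.4.6, numba 0.67.0 and scipy 1.17.1 were used, and 11 of 11 checks on simulated data with known answers passed.

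The 9 genes, the further lists and the motifs were chosen with earlier results of these data known. By rule, the text names all 9 genes, CCN2, ANKRD1 and the 6 further genes with the most shared sites, and shows windows at shared sites and at the top promoter peak of each treated list. Other genes are named as examples or neighbours.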

Additional observations from a re-analysis of the deposited data

How the results depend on the processing

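Counts at the 9 genes depended on the span, on TEAD3 and on the length of the lists. With the span not widened (0 kb) or widened by 50 kb, LAP-Smad2 after TGFβ-1 had 9 or 26 peaks, and the untreated library labelled LAP-Smad3 had 1 or 7, the latter at 2 genes. Without TEAD3, chosen after seeing the data, these lists had 8 and 0 peaks, the second at 0 genes, and 87.5% of LAP-Smad2 peaks were promoter peaks. LAP-Smad3 after TGFβ-1 had 21 peaks without mostly repeated windows and 12 when cut to the length of the LAP-Smad2 list, both added later. With 1 kb in place of 3 kb, 2.63% of its peaks were promoter peaks, and with 1 kb in place of 500 bp it had a start-site summit at 1 gene, TEAD3. Shared peaks in each treated list came to 0 with a mutual overlap of 50% and to 1 with summits within 100 bp, with lists of equal length or without TEAD3. The number of genes with a LAP-Smad2 start-site summit was 4 to 6 over the settings run for it. The planned filter on soft-masked bases was not run, since the genome at hand is not masked, and the count of repeated 24-mers took its place. No paired analysis was possible because each condition has 1 library. The depth of the libraries is unknown, so a gene without a peak was not detected at this cut-off and is not shown to be unbound.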

Other observations

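Without TGFβ-1, the wider pathway was counted in the same way. In the library labelled LAP-Smad2, 4 of the 24 upstream genes and cofactors and 4 of the 20 targets had peaks, and in the one labelled LAP-Smad3, 5 and 3 had them. Over all protein-coding genes, 22% had a peak in the first of these lists and 9.14% in the second. Of the genes named from these lists, NF2 had 3 peaks in the first untreated list and 0 in the second, beside 2 peaks of LAP-Smad2 and 3 of LAP-Smad3 in the treated lists. PTPN14 had 1 and 2 untreated peaks, beside 3 and 2 after TGFβ-1. Over all protein-coding genes, 86.6% of the peaks in the untreated library labelled LAP-Smad2 were mostly repeated, and 28.8% in the one labelled LAP-Smad3. Mostly repeated windows were not left out of the counts at these further genes.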
